A study of Mus musculus with 18 samples.

Results

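A set of 8 genes of secreted effector proteins was followed through every library of the series: the cytokines Ifng, Il2, Csf2 and Csf1 and the chemokines Ccl3, Ccl4, Ccl5 and Xcl1. They were chosen by symbol as effector products of natural killer (NK) cells and type 1 innate lymphoid cells (ILC1s), and they are 8 of the 46078 genes in the count table. The 18 libraries were made from 200 sorted cells each of C57BL/6 mice aged 8 weeks, in 6 groups of 3. Spleen ILC1s, liver ILC1s and liver NK cells came from mice with Ncr1-Cre Rosa26-RARα403, and the same 3 populations came from control mice with Ncr1-Cre alone, so that every animal carried the Cre. RARα403 is a shortened form of the α receptor for retinoic acid. It blocks the normal receptors as a dominant negative, and the Ncr1 promoter confines its activation to cells that make, or whose precursors made, the receptor NKp46. The title of the series asks whether activity of the receptor is needed to keep ILC1s. How many animals stand behind the libraries is not stated, so p-values measure the spread between libraries only. ILC1s were sorted by CD49a and the interleukin-7 receptor and NK cells by CD49b, all of them negative for CD3 and positive for NK1.1 and NKp46.

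Interferon-γ, the product of Ifng, activates macrophages and is the defining cytokine of both cell types. Interleukin-2, from Il2, is a growth factor for lymphocytes, and Csf2 (GM-CSF) and Csf1 (M-CSF) encode growth factors of myeloid cells. Ccl3, Ccl4 and Ccl5 encode chemokines that attract T cells, NK cells and monocytes, and Xcl1 encodes the ligand of XCR1, a receptor of the dendritic cells that cross-present antigen. In NK cells many of these transcripts are made ahead of activation and rise further on stimulation.

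Libraries held 3452279 to 9038767 counts. Levels are log2 CPM, the deposited counts relative to library size after scaling between libraries, with a prior count of 2, so that a gene without counts lies at -1.71. A count of 0 allows up to 3 counts, which came to 0.333 to 0.859 CPM in these libraries and covers counting error only. Most genes that mark the cell types separated ILC1 from NK libraries, with exceptions. Cxcr6, which marks ILC1s, had 1967 to 10183 counts in the 12 ILC1 libraries and 0 to 88 in the 6 NK libraries, while Eomes, which marks NK cells, had 10 to 1501 counts in the ILC1 libraries and 1819 to 4974 in the NK libraries. Of the genes of the sort, Itga1, which encodes CD49a, was at 6.04 to 8.47 log2 CPM in ILC1 libraries and reached 7.60 in liver NK RARα403 replicate 1, and Il7r was at 7.74 or more in ILC1 libraries and reached 7.70 in liver NK RARα403 replicate 1. Itgam, which marks NK cells, reached 6.69 log2 CPM in control spleen ILC1s and fell to 6.68 in liver NK RARα403 libraries. Several libraries did not follow their group. Liver NK RARα403 replicate 1 correlated with the libraries of its own group at a mean r of 0.798, against 0.883 to 0.971 for the other 17. The noncoding transcript of the Rosa26 locus, Gt(ROSA)26Sor, had 0 to 10 counts in replicates 2 and 3 of every RARα403 group and 104 to 1260 in control libraries. RARα403 replicate 1 had 365 counts of it in spleen ILC1s, lay within the control range in the liver ILC1s too, and had 0 in the NK cells. Gm13394, which also separated the other libraries, had 452 to 1009 counts in replicates 2 and 3 of the RARα403 groups and 24 to 64 in control libraries, and 64, 19 and 56 in RARα403 replicate 1 of spleen ILC1s, liver ILC1s and NK cells. Rara had 1764 counts in liver NK RARα403 replicate 1 and 119 to 399 in the other 17 libraries. These libraries are therefore called the libraries labelled RARα403, and values from replicates 2 and 3 alone are given for the members' larger differences. The X-inactivation transcript Xist had 596 to 1404 counts in control replicate 3 and RARα403 replicate 2 of each population and at most 28 elsewhere, so sex varied within the groups. Description codes opened with 1 in replicate 1 and with 2 in replicates 2 and 3 of every group.

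Per length of exon, the scale on which genes can be set beside each other, Ccl5 was the most abundant of the 8 in every group. Its group means ran from 1365 ± 241 CPM per kb in spleen ILC1s labelled RARα403 to 2453 ± 600 in control NK cells (SD, n = 3 each). Csf1 was the least abundant in 5 of the 6 groups, with means of 0.0192 to 0.882 CPM per kb, and in control NK cells Il2 was lower still, at 0.116. Between them Xcl1 averaged 147 to 999 CPM per kb, Ccl4 averaged 136 to 944, Ifng averaged 56.8 to 143 and Ccl3 averaged 34.8 to 158. Csf2 had means of 3.80 to 35.5 CPM per kb and Il2 of 0.116 to 20.8. The genes thus spanned a wide range, and their order within a group is a description of these libraries.

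**Figure D1:**
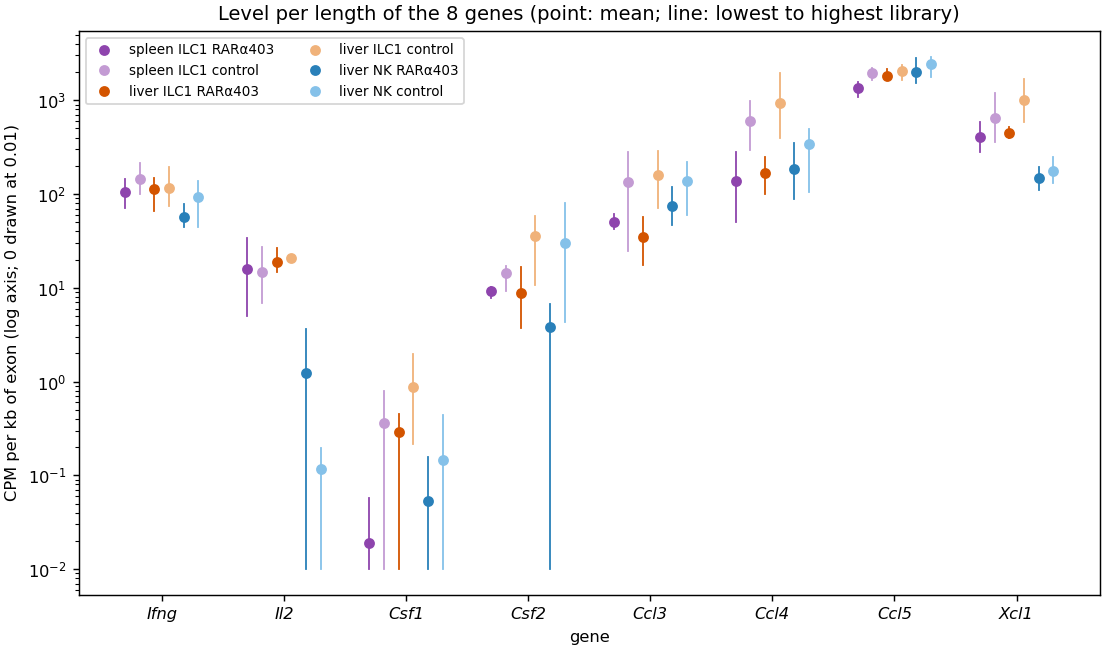
Level per length of the 8 genes in the 6 groups, as CPM per kb of exon on a log axis. Points are means of 3 libraries and lines run from the lowest to the highest library. Ccl5 has the highest mean in every group, 1365 to 2453, and Csf1 the lowest in all but control NK cells.

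Il2 and Xcl1 were the members that separated ILC1s from NK cells. Both rose in control liver ILC1s over control liver NK cells, by 7.25 on the log2 scale for Il2 and by 2.51 for Xcl1, while the other 6 members did not pass the test. The promoters of these genes are shown because the pair carried this difference, with those of Ifng, which did not, and of Ccl3, which is taken up below. The 6 of 8 members with an entry in RefSeq's table (GRCm38.p6) were Ifng, Il2, Csf1, Csf2, Ccl3 and Xcl1. Each line gives the bases before the RefSeq start, 5′ to 3′ on the strand of the gene, less any that the GENCODE annotation of the same build counts as transcribed.
Il2, chr3:37125960-37126204, minus strand, 245 bases: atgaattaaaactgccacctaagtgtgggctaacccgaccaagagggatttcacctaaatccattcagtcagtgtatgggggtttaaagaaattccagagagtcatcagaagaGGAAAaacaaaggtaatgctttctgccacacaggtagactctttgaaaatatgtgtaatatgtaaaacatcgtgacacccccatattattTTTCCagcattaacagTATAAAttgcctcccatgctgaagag
Xcl1, chr1:164935528-164935772, minus strand, 245 bases: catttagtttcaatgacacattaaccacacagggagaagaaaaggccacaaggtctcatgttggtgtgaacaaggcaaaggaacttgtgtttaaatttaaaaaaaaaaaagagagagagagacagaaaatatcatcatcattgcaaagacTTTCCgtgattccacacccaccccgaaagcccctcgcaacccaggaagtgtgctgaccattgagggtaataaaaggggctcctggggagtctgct
Ifng, chr10:118440796-118441045, plus strand, 250 bases: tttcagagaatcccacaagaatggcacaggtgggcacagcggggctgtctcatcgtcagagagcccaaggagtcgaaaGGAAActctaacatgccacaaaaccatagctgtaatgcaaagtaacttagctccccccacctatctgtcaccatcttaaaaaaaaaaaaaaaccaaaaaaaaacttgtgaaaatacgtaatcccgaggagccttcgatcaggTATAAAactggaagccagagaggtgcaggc
Ccl3, chr11:83649379-83649628, minus strand, 250 bases: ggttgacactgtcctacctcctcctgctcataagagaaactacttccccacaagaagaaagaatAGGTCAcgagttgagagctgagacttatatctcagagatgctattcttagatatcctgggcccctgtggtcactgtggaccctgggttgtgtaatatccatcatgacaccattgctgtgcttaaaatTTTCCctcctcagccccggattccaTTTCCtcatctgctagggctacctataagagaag
Capitals mark the letters of 5 motifs searched on both strands: GGAAA, the core bound by NFAT, the factor that calcium signals activate; TGANTCA, bound by AP-1; AGGTGT, bound by T-box factors such as T-bet and Eomes; AGGTCA, the core bound by retinoic acid receptors; and the TATA box as TATAAA. The NFAT core occurred at 2 places upstream of Il2, 2 of Ccl3, and 1 each of Xcl1 and Ifng. It is also present in 55.6% of 32851 mouse promoter windows of 250 bases. TATAAA occurred upstream of Il2 and Ifng and in 12.4% of all windows, and AGGTCA occurred upstream of Ccl3 and in 14.0%. TGANTCA, in 6.75% of all windows, and AGGTGT, in 11.8%, had no match in the 4 windows shown. A match says only that the letters are there.

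Il2 (ENSMUSG00000027720, mm10 chromosome 3, 37120523 to 37125959, protein coding) was at 4.67, 4.52 and 4.59 log2 CPM in control liver ILC1s, replicates 1 to 3, against -1.71, -0.92 and -1.05 in control liver NK cells. Every ILC1 library lay above every NK library. The counts behind these levels were 374 over the 3 ILC1 libraries and 3 over the 3 NK libraries, a ratio of 170 with an exact 95% interval of 57.7 to 828 that covers counting error only. The fitted difference was 7.25 ± 1.49 (log2, SE), which depends on the prior count where counts are so few, with an adjusted p of 0.0356 by edgeR's quasi-likelihood test. With the replicate number as a block the call was lost, at 7.35 with an adjusted p of 0.0651. That block joins libraries of both genotypes under each number, and a pairing within a genotype was not fitted. Fewer cells that hold the transcript and less of it in each cell cannot be told apart in bulk libraries. Il2 passed the filter on low counts through its ILC1 libraries. Spleen ILC1s of control mice had 4.98, 3.04 and 3.51 log2 CPM and did not overlap with the NK libraries either. Their difference from the control NK cells was 6.75 ± 1.46 with an adjusted p of 0.0714, past the threshold only when liver NK RARα403 replicate 1 was left out of the shared fit (adjusted p = 0.00946), with DESeq2 (1.88e-05) or with no filter (8.24e-05). Organ and cell type differ together in that comparison.

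Xcl1 (ENSMUSG00000026573, chromosome 1, 164931644 to 164935527, protein coding) was expressed in all 18 libraries. Liver ILC1s of control mice had 9.79, 8.26 and 8.55 log2 CPM, against 6.28, 7.01 and 6.11 in control liver NK cells. The lowest ILC1 library was thus above the highest NK library. The difference was 2.51 ± 0.52 with an adjusted p of 0.0382. In replicates 2 and 3 it was 1.77, with an adjusted p of 0.0146, so replicate 1, the highest library of the group, took part in its size and not in its direction. Control spleen ILC1s stood at 9.30, 7.56 and 7.57 log2 CPM, above all control NK libraries, and the difference of 1.88 ± 0.51 had an adjusted p of 0.246. DESeq2 gave that difference an adjusted p of 0.0238 and the fit with no filter one of 0.00191, and without spleen ILC1 control replicate 1 its size was 1.04. Exons of Xcl1 share 98 bases with Gm20743 on the opposite strand, with the strand setting of the counting not given in the sources used here.

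Over all genes the contrast of control liver ILC1s with control NK cells gave 89 calls among 14714 tested, or 0.605%, against 2 of the 8 members. Il2, 1 of these 2, passed the filter on low counts through its ILC1 libraries. The 2 shares are therefore a description and no test of the set. Groups without overlap and with ILC1s higher were found for 8.69% of genes and for these 2 members. The members' median difference was 0.89 and that of all genes 0.03. The calls were not firm against single libraries. Without any 1 of the 6 libraries the difference of Il2 stayed between 6.75 and 7.84 but its adjusted p was 0.0698 to 0.189. For Xcl1 the difference was 1.89 to 2.83 and its adjusted p 0.0398 to 0.218, and only the fit without liver ILC1 control replicate 2 kept the call. The fits without 1 library called 18 to 55 genes in all. Markers of T cells, which make interleukin-2 and XCL1 too, were read beside these differences: of 10 tested, 8 had positive and 2 negative differences, and 1 was called. The 10 T cell markers summed to 345 to 726 CPM in control liver ILC1s and to 252 to 366 in control NK cells. Of the defining markers, Cd3g had 814 to 1062 counts in control liver ILC1s and 0 to 125 in control NK cells. Cd3e had 51 to 150 and 0 to 3, Trac had 235 to 270 and 23 to 88, and Cd4 had 15 to 49 and 0 to 34. Lef1, a transcription factor of T cells on the same list, ran the other way, at 5.08 to 6.08 log2 CPM in control liver ILC1s and 7.03 to 7.35 in control NK cells. Tcf7, also on the list, overlapped, at 5.77 to 7.65 log2 CPM in control liver ILC1s and 6.80 to 7.45 in control NK cells. Control spleen ILC1s had 322 to 690 counts of Cd3e, and their T cell markers summed to 584 to 1010 CPM. The 7 NK markers summed to 141, 960 and 514 CPM in control spleen ILC1s, replicates 1 to 3. In control NK cells they summed to 4153 to 5121 CPM. The part of these markers in the differences of Il2 and Xcl1 was not tested.

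**Figure D2:**
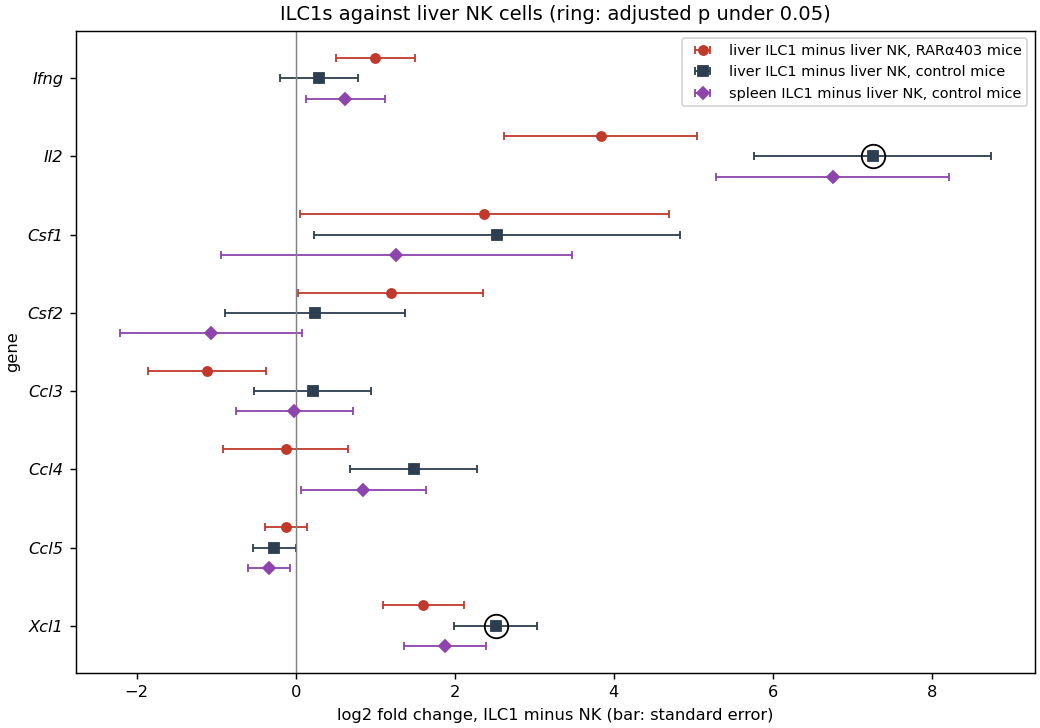
Difference between ILC1s and liver NK cells for each gene, as log2 fold change (ILC1 minus NK) with its standard error, in RARα403 mice (liver), control mice (liver) and control mice (spleen ILC1s). Rings mark adjusted p under 0.05, which only Il2 and Xcl1 in control liver reach, at 7.25 and 2.51.

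In mice labelled RARα403 the same contrast called neither gene. Il2 was at 4.09, 4.92 and 4.19 log2 CPM in liver ILC1s labelled RARα403, against -1.71, 2.14 and -1.08 in the NK cells of that genotype. The groups did not overlap, and the difference was 3.83 ± 1.22 with an adjusted p of 0.220, although DESeq2 (0.0111) and the fit with no filter (0.0241) called it. It turned on a single NK library, replicate 2, with 37 of the 38 counts of the group. Without that library the difference was 7.57 and its adjusted p 0.0352, and in replicates 2 and 3 the difference was 3.43. The 7 ILC1 markers summed to 20.5 CPM in that NK library, the lowest of the 6 NK libraries, where the others had 33.8 to 405. Xcl1 was at 7.68, 8.09 and 7.82 log2 CPM in liver ILC1s labelled RARα403, against 6.68, 5.85 and 6.16 in NK cells labelled RARα403, again without overlap. Its difference of 1.61 ± 0.51 had an adjusted p of 0.220, and it was past the threshold with no filter (0.00927) and in replicates 2 and 3, where it was 1.95 with an adjusted p of 0.0108. Among all genes 0.401% were called in this contrast, and 7.57% were higher in ILC1s without overlap. For control spleen ILC1s against control NK cells 0.313% were called and 8.9% were higher without overlap. Whether the ILC1-to-NK difference itself varied with genotype was tested as an interaction: it was -3.42 ± 1.69 for Il2 (adjusted p = 0.810) and -0.91 ± 0.70 for Xcl1 (adjusted p = 0.931), neither past the threshold. Without replicate 2 of the NK cells labelled RARα403 the interaction of Il2 was 0.33.

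None of the other 6 members passed the test between liver ILC1s and liver NK cells. Ifng (ENSMUSG00000055170, chromosome 10, 118441046 to 118445892) differed by 0.29 ± 0.50 between liver ILC1s and NK cells of control mice and by 1.00 ± 0.50 in mice labelled RARα403, with adjusted p of 1.00 and 0.440. Ccl5 (ENSMUSG00000035042, chromosome 11, 83525778 to 83530518) differed by -0.27 ± 0.27 and -0.12 ± 0.27, the narrowest errors of the set. Ccl4 (ENSMUSG00000018930, chromosome 11, 83662584 to 83664683) was 1.48 ± 0.80 higher in control liver ILC1s and -0.12 ± 0.78 in those labelled RARα403. Without a filter on low counts the control difference of Ccl4 was called, at 1.47 with an adjusted p of 0.0356. Ccl3 (ENSMUSG00000000982, chromosome 11, 83647844 to 83649355) differed by 0.21 ± 0.73 in control mice and by -1.11 ± 0.75 in mice labelled RARα403. Csf2 (ENSMUSG00000018916, chromosome 11, 54247271 to 54249667) differed by 0.24 ± 1.13 and 1.20 ± 1.16, and Csf1 (ENSMUSG00000014599, chromosome 3, 107741048 to 107760469) by 2.53 ± 2.30 and 2.37 ± 2.32. The 3 Ccl genes lie close together on chromosome 11.

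Against control cells, the libraries labelled RARα403 had lower levels of most members, and no difference passed the test in any population. The largest in size were those of low-count genes, -4.01 for Csf1 in spleen ILC1s, 3.27 for Il2 and -2.96 for Csf2 in NK cells. Among the chemokines the largest were those of Ccl4, at -2.49, and Ccl3, at -2.18, in liver ILC1s. Over the 3 populations 22 of the 24 differences were negative, and 7 of the 8 genes were negative in all 3, the exception being Il2. These are signs of fitted values, and those near 0 are not firm. Nor are the 24 signs independent, since members can move together within a library. Control replicate 1 was the highest of its group for both Ccl4 and Xcl1 in each ILC1 population. Whether the populations share animals is not stated, and the signs were not tested as a set. Ifng in liver ILC1s counts as negative at -0.01, although its mean log2 CPM was 7.12 in libraries labelled RARα403 and 7.06 in control libraries and its sign turned in 3 of the alternatives. Il2 in spleen ILC1s counts as positive at 0.11, with means of 3.71 in libraries labelled RARα403 and 3.84 in control libraries. The members' median was -0.64 in spleen ILC1s, -1.38 in their liver counterparts and -0.79 in NK cells, where all tested genes had medians of -0.003, 0.00 and 0.00 and 50.5%, 50.4% and 52.0% of them were negative. In each population 0 of 14714 genes, 0%, had an adjusted p under 0.05 by edgeR. At an unadjusted p under 0.05 there were 425 genes in spleen ILC1s, 432 in liver ILC1s and 1418 in NK cells, and DESeq2 called 25, 38 and 156, none of them a member.

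**Figure D3:**
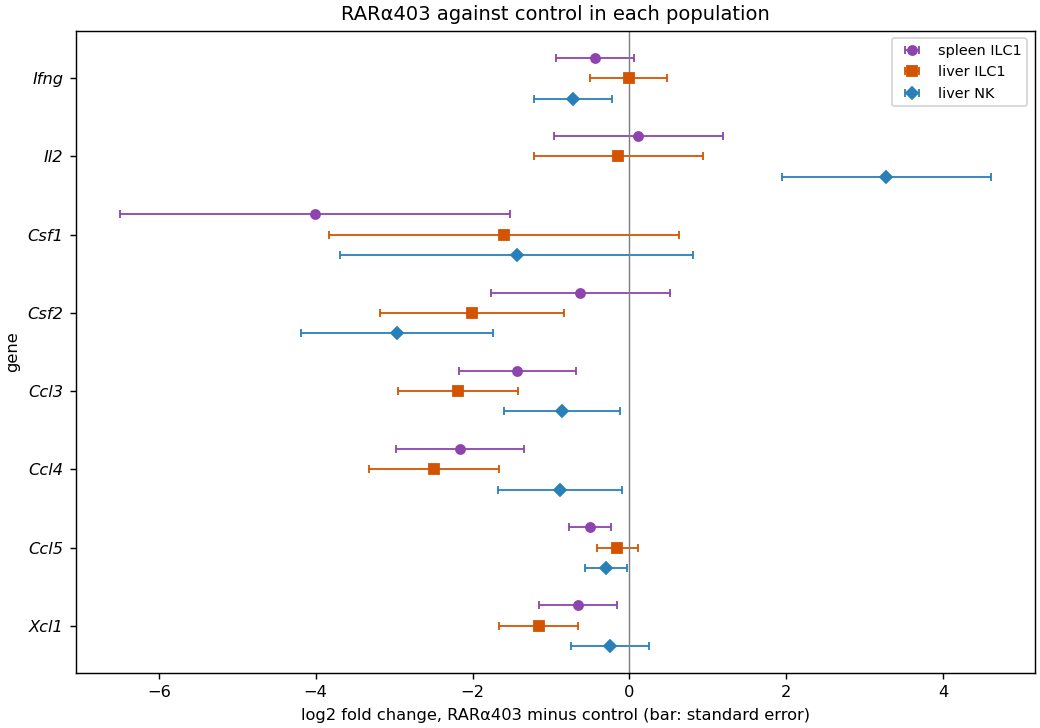
Difference between libraries labelled RARα403 and control libraries for each gene, as log2 fold change (RARα403 minus control) with its standard error, in spleen ILC1s, liver ILC1s and liver NK cells. Ccl3 and Ccl4 are below 0 in all 3 populations, Ifng lies between -0.72 and -0.01, and no point passed the test.

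Ccl4 was at 5.70, 5.05 and 7.53 log2 CPM in spleen ILC1s labelled RARα403, against 9.33, 7.59 and 8.52 in control spleen ILC1s. In liver ILC1s it was at 6.70, 7.36 and 6.05 in the libraries labelled RARα403, against 10.33, 8.31 and 8.04 in control libraries. In neither ILC1 population did the genotypes overlap, although the nearest libraries in spleen ILC1s, at 7.53 and 7.59, were close. Liver NK cells had 6.16, 7.87 and 5.88 log2 CPM with the RARα403 label and 8.13, 6.13 and 8.33 without it, and here the ranges overlapped. The differences were -2.16 ± 0.82 in spleen ILC1s, -2.49 ± 0.83 in liver ILC1s and -0.88 ± 0.79 in NK cells, with adjusted p of 1.00, 1.00 and 0.799 by edgeR. Replicates 2 and 3 alone gave -1.36, -1.34 and -0.44. Without a filter on low counts Ccl4 was called in spleen ILC1s (adjusted p = 0.00112) and liver ILC1s (1.67e-05), while the other alternatives gave adjusted p of 0.336 or more in liver ILC1s and of 0.887 or more in spleen ILC1s. Leaving out liver ILC1 control replicate 1 brought the liver ILC1 difference to -1.38.

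Ccl3 went with Ccl4 in liver ILC1s, where it was at 4.57, 5.44 and 3.78 log2 CPM with the RARα403 label, against 7.79, 5.77 and 6.46 in control libraries. The groups did not overlap, and the difference was -2.18 ± 0.77 (adjusted p = 1.00). Replicates 2 and 3 gave -1.33, and the fit without liver ILC1 control replicate 1 gave -1.41. Ccl3 was past the threshold with no filter on low counts, at an adjusted p of 0.0451. In spleen ILC1s the levels were 5.55, 5.18 and 5.03 with the RARα403 label and 6.21, 4.25 and 7.76 in control libraries, with overlap and a difference of -1.43 ± 0.75 (adjusted p = 1.00). In liver NK cells they were 5.16, 6.50 and 5.58 with the label and 6.63, 5.51 and 7.41 in control libraries, a difference of -0.86 ± 0.74 (adjusted p = 0.789). The control libraries of spleen ILC1s spread further than the genotypes differed.

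Xcl1 lay lower in liver ILC1s labelled RARα403, at 7.68, 8.09 and 7.82 log2 CPM, than in control liver ILC1s, at 9.79, 8.26 and 8.55. The ranges were separate but close, and the difference was -1.16 ± 0.50 (adjusted p = 1.00). In replicates 2 and 3 it was -0.46, and without liver ILC1 control replicate 1 it was -0.54. Spleen ILC1s had 8.27, 7.20 and 7.51 with the label and 9.30, 7.56 and 7.57 in control libraries, a difference of -0.65 ± 0.50 that turned to 0.18 without spleen ILC1 control replicate 1. NK cells differed by -0.25 ± 0.50. The 3 members Ccl3, Ccl4 and Xcl1 were thus lower without overlap in liver ILC1s, as were 4.43% of all tested genes. Ccl4 and Ccl5 were so in spleen ILC1s, by narrow gaps, against 4.87% of genes, and no member was so in NK cells, against 4.73%.

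Ccl5 was the steadiest of the chemokines. It was at 10.03, 10.45 and 10.54 log2 CPM in spleen ILC1s labelled RARα403, against 11.03, 10.90 and 10.62 in control libraries, a difference of -0.50 ± 0.27 (adjusted p = 1.00) that was -0.28 in replicates 2 and 3. Liver ILC1s had 11.00, 10.65 and 10.66 with the label and 11.15, 10.63 and 10.96 in control libraries. Liver NK cells had 10.52, 11.40 and 10.61 with the label and 11.44, 10.73 and 11.33 in control libraries. The differences of -0.15 ± 0.27 in liver ILC1s and -0.30 ± 0.27 in NK cells were of the size of their errors.

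Ifng had the smallest difference of the set by genotype in liver ILC1s, with 6.40, 7.60 and 7.36 log2 CPM in libraries labelled RARα403 and 6.61, 7.98 and 6.60 in control libraries. Spleen ILC1s had 7.56, 6.54 and 7.02 with the label and 8.10, 7.01 and 7.27 in control libraries. Liver NK cells had 5.93, 5.87 and 6.67 with the label and 7.02, 7.46 and 5.86 in control libraries. All 3 pairs of groups overlapped, and the differences were -0.01 ± 0.49 in liver ILC1s, -0.44 ± 0.50 in spleen ILC1s and -0.72 ± 0.50 in NK cells, with adjusted p of 1.00, 1.00 and 0.708. Ifng shares 336 exon bases with Gm49751 on the same strand, so reads of that stretch may be counted for either or for none.

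Among the growth factor genes, Il2 differed by 0.11 ± 1.08 in spleen ILC1s and by -0.14 ± 1.08 in liver ILC1s (adjusted p = 1.00 each). Spleen ILC1s labelled RARα403 had 5.30, 2.59 and 3.25 log2 CPM of Il2, against 4.98, 3.04 and 3.51 in control spleen ILC1s, so that replicate 1 was the highest library of both groups. NK cells labelled RARα403 had 38 counts of Il2, 37 of them in replicate 2, against 3 in control NK cells. The ratio of 14.0 had an exact 95% interval of 4.44 to 70.9 that covers counting error only and not the spread between libraries. The fitted difference of 3.27 ± 1.34 (adjusted p = 0.472) was 3.31 in replicates 2 and 3 and -0.46 without replicate 2 of the RARα403 group. Csf2 was at -1.71, 2.03 and 2.50 log2 CPM in NK cells labelled RARα403, against 1.90, 5.99 and 2.53 in control NK cells. Its difference of -2.96 ± 1.23 (adjusted p = 0.474) likewise turned on 1 library, since it was -0.53 without liver NK control replicate 2, while replicates 2 and 3 gave -2.93. Liver ILC1s had 1.70, 3.75 and 2.43 with the label and 4.93, 3.15 and 5.55 in control libraries, a difference of -2.01 ± 1.18 (adjusted p = 1.00) that was -1.61 in replicates 2 and 3. Spleen ILC1s had 3.07, 2.71 and 3.04 with the label and 3.81, 3.77 and 2.94 in control libraries, a difference of -0.63 ± 1.14. Csf1 was near the floor, with 0 to 48 counts a library. It had 2 counts over the spleen ILC1 libraries labelled RARα403, against 37 in control spleen ILC1s, a ratio of 0.0566 with an exact interval of 0.00661 to 0.220 that covers counting error only. The control counts were 13, 0 and 24 by library, and the fitted difference was -4.01 ± 2.49 (adjusted p = 1.00), or -6.80 in replicates 2 and 3. Csf2 shares 96 exon bases with Gm12223 on the opposite strand.

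**Figure D4:**
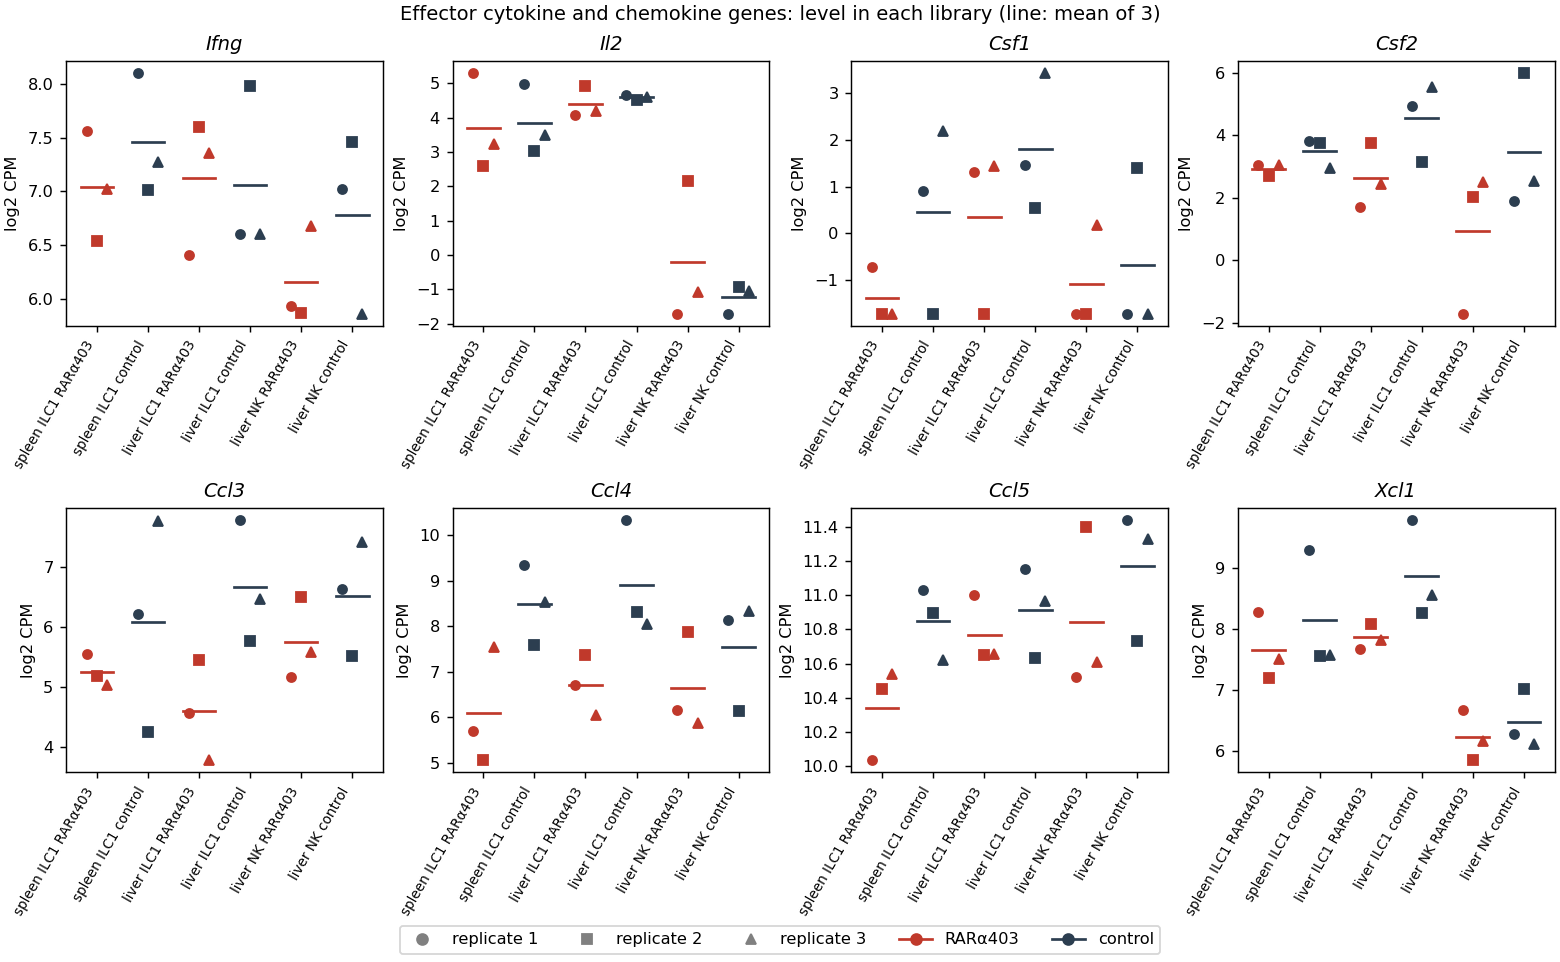
Level of the 8 genes in each library, in log2 CPM, for RARα403 and control groups of spleen ILC1s, liver ILC1s and liver NK cells. Marker shapes give the replicate number and lines the mean of 3. Il2 and Xcl1 are higher in ILC1s than in NK cells, and Ifng overlaps between all neighbouring groups. Ccl4 in ILC1s is lower in the RARα403 groups without overlap, by a narrow gap in spleen.

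Whether the RARα403 effect varied between populations was tested directly. Between liver ILC1s and liver NK cells the effect differed by -1.61 ± 1.12 for Ccl4, -1.33 ± 1.04 for Ccl3 and 0.71 ± 0.70 for Ifng, with adjusted p of 0.889, 0.932 and 0.975. Between spleen and liver ILC1s it differed by 0.33 ± 1.11 for Ccl4 and 0.75 ± 1.04 for Ccl3 (adjusted p = 1.00 each). No member and no other gene passed in either interaction by edgeR (0%), while 913 and 397 genes had an unadjusted p under 0.05 and DESeq2 called 54 and 23. Between control spleen ILC1s and control liver ILC1s no gene passed by edgeR either (0%, with 468 at an unadjusted p under 0.05 and 38 by DESeq2). With groups of 3 libraries this does not show that the 2 populations are alike. Among the members, Csf2 had the largest difference there, -1.31 ± 1.15, and Csf1 the next, -1.27 ± 2.21.

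Ordered by group mean, Il2, Csf1, Csf2, Ccl3, Ccl4 and Xcl1 were highest in control liver ILC1s, Ifng in control spleen ILC1s and Ccl5 in control NK cells. Neighbours in this order overlapped in their libraries except in 3 places. These were Il2 between spleen ILC1s and NK cells, both labelled RARα403, with a gap of 3.93 log2 CPM; Xcl1 between spleen ILC1s labelled RARα403 and control NK cells, with a gap of 1.19; and Ccl5 between liver and spleen ILC1s labelled RARα403, with a gap of 0.43.

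Other cytokine and chemokine genes gave few calls. Of 16 other cytokine genes 15 were in the table and 8 were tested, and 1 rose in control liver ILC1s over control NK cells. It was Ltb, which encodes lymphotoxin-β, a membrane cytokine that organises lymphoid tissue, at 9.19 ± 0.16 log2 CPM in the ILC1s and 6.44 ± 0.90 in the NK cells (SD, n = 3 each), a difference of 2.56 ± 0.44 (SE) with an adjusted p of 0.0136. It was higher in control spleen ILC1s than in control NK cells as well, by 2.49 ± 0.44 with an adjusted p of 0.0221. The list's median in the liver contrast was 1.59, against 0.03 for all genes. In the RARα403 contrasts none of the 8 passed, and the smallest p in both ILC1 populations belonged to Fasl, the death ligand, at -0.49 ± 0.33 in spleen and -0.50 ± 0.33 in liver ILC1s. Flt3l is not analysed here. Of 20 other chemokine genes 9 were tested and none passed in any comparison. Their smallest p in spleen ILC1s by genotype was that of Ccl1, -4.10 ± 2.64 with an adjusted p of 1.00, and in NK cells that of Cxcl16, which had no counts with the RARα403 label and a mean of 1.58 CPM in control cells. In liver ILC1s 3 of the 9 had an unadjusted p under 0.05 by edgeR. The smallest was that of Ccl6, with no counts with the label and a mean of 5.64 CPM in control cells. Ccl9, the next, had no counts in control liver ILC1s and a mean of 10.5 CPM with the label.

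Receptors of the members gave no call among 10 tested of 12. Xcr1, the receptor of XCL1, had 42 to 52 counts in the control liver ILC1 libraries and 0 in all 3 control NK libraries, where 3 counts a library allow 0.442 CPM, so it was at least 23.3-fold higher in the ILC1s, with an adjusted p of 0.0540. In libraries labelled RARα403 it had 98 to 243 counts in liver ILC1s and 0 to 2 in NK cells. Ifngr1, a chain of the interferon-γ receptor, was 0.95 ± 0.27 lower in control liver ILC1s than in control NK cells (adjusted p = 0.189), and Il2rb, a chain of the interleukin-2 receptor, was 1.44 ± 0.52 higher in NK cells labelled RARα403 than in control NK cells (adjusted p = 0.431), where the library that stands apart enters the mean.

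Transcription factors known to act on cytokine genes were all tested, 20 of 20, and 1 fell in control liver ILC1s relative to control NK cells: Eomes, by 5.42 ± 1.06 (adjusted p = 0.0277), which the sort of the cell types carries with it. None passed by genotype. Eomes was 2.38 ± 0.94 higher in liver ILC1s labelled RARα403 than in control liver ILC1s (adjusted p = 1.00), at 5.78 ± 1.21 and 3.03 ± 1.82 log2 CPM (SD). The 7 NK markers summed to 156 to 1163 CPM in those libraries and to 88.5 to 139 in control liver ILC1s, the highest being RARα403 replicate 1. In NK cells by genotype the smallest p was that of Stat5b, 2.25 ± 0.72 higher with the RARα403 label (adjusted p = 0.428 by edgeR). Tbx21, which encodes T-bet, an activator of Ifng, was 0.68 ± 0.25 lower in NK cells labelled RARα403 (adjusted p = 0.431). The library that stands apart, replicate 1, enters both means, and its Tbx21 was at 9.08 log2 CPM, the lowest of its group. The 10 genes of RNA-binding factors that destabilise or stabilise cytokine transcripts were all tested, with 0 called in any comparison and medians by genotype of -0.05 in spleen ILC1s, 0.09 in liver ILC1s and -0.09 in NK cells. Rc3h1, which encodes the decay factor Roquin-1, was 0.79 ± 0.36 higher in liver ILC1s labelled RARα403 (adjusted p = 1.00). Zfp36l1, on the same list, was 2.39 ± 0.75 higher in NK cells labelled RARα403 (adjusted p = 0.428 by edgeR), again with the library that stands apart in the mean.

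Immediate early genes, which are switched on within minutes of stimulation and also by tissue handling, were read beside the chemokines. None of 17 was called by genotype. Egr1 had 0, 22 and 7 counts in spleen ILC1s labelled RARα403, against 1778, 96 and 1139 in control spleen ILC1s, a difference of -6.57 ± 1.34 (adjusted p = 1.00). In liver ILC1s it had 134, 234 and 66 counts with the label and 1673, 89 and 262 in control libraries, a difference of -2.25 ± 1.08 (adjusted p = 1.00), with overlap. Nr4a1 differed by -2.87 ± 1.31 in spleen ILC1s (adjusted p = 1.00) and by -0.94 ± 1.23 in liver ILC1s. In liver ILC1s it had 315, 359 and 72 counts with the label and 1226, 167 and 6 in control libraries, so that the fitted value rests on control replicate 1, while the mean log2 CPM was 4.92 with the label and 4.55 in control libraries. The 17 genes together summed to 930 to 1324 CPM in spleen ILC1s labelled RARα403 and 1119 to 1721 in control ones. In liver ILC1s the sums were 1167 to 1323 with the label and 1122 to 1699 in control libraries, and in NK cells 1211 to 1446 and 1448 to 1676. Control replicate 1, with the highest Egr1 of each ILC1 group, also had the highest Ccl4 and Xcl1 of its group. The part of these genes in the chemokine differences was not tested.

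Macrophages also make CCL3 and CCL4, and their markers were read beside these genes. Of 9 myeloid markers tested 0 were called by genotype in liver ILC1s or in spleen ILC1s. In liver ILC1s 7 had negative and 2 positive differences, with a median of -0.60. In spleen ILC1s all 9 were negative, with a median of -1.19. The 12 myeloid markers summed to 197 to 323 CPM in liver ILC1s labelled RARα403 and to 342 to 564 in control liver ILC1s. Most of this was Itgax, which all groups expressed. Without Itgax, a choice made after its values were seen, the sums were 2.64 to 103 CPM with the label and 0 to 279 in control libraries, with overlap. Lyz2 had 1560 counts in liver ILC1 control replicate 1, the library with the most Ccl3 and Ccl4 of the group, and 0 to 121 in the other 5 liver ILC1 libraries; S100a8 and S100a9 were at 0 in all 6. In spleen ILC1s the sums without Itgax were 16.9 to 42.1 CPM with the label and 9.72 to 481 in control libraries, the highest being replicate 3, the library with the most Ccl3. The 6 B cell markers all had negative differences by genotype in spleen ILC1s, with a median of -1.79 and 0 called, and summed to 314 to 822 CPM with the label and 333 to 2557 in control libraries, the highest being replicate 3 again. Their part was not tested. Without liver ILC1 control replicate 1 the differences of Ccl4 and Ccl3 were smaller, as given above, and their part was not tested beyond that. The 10 T cell markers summed to 640 to 1021 CPM in liver ILC1s labelled RARα403 and 345 to 726 in control ones, with overlap.

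The genes whose levels ran most like each member's were found over the 17 libraries other than liver NK RARα403 replicate 1, among 8272 named protein-coding genes, by the root mean square difference of centred log2 CPM. Hcls1 (0.21) and Arpc2 (0.22) were nearest to Ccl5, and Pop5 (0.44) and Slc16a3 (0.46) to Ifng. Ccl5 and Ifng themselves spread by only 0.36 and 0.63 on this measure. Distances are short where genes vary little, so they do not rank the members by closeness of match. Bcl2a1d (0.49) and Cd226 (0.51) were nearest to Xcl1, whose own spread on this measure was 1.07. Marveld1 (0.77) and Naip5 (0.84) were nearest to Ccl3, Lysmd3 (0.86) and Rel (0.88) to Csf2, and Gadd45b (1.00) and Eogt (1.00) to Ccl4, whose own spread was 1.35. The measure is a description, and these libraries share depth and sort. Il2 and Csf1 had means under 3 log2 CPM and were left out of it.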

How the data were processed

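Per the labels' protocols, sorted cells were amplified by SMART-seq chemistry, and the 18 libraries are bulk RNA. The authors deposited a table of raw counts per gene. Per the submitters' processing notes, the tools were fastp 0.23.0, HISAT2 2.1.0 and featureCounts of Subread 1.6.5, with mm10. Strand setting, annotation release and handling of multi-mapped reads were not given in the sources used here. No column lacked a sample (0 columns). Of 46078 genes, 45143 were matched to GENCODE M21.

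From the counts, filterByExpr (minimum count 10) kept 14714 genes, all 8 members among them. edgeR 4.0.16 in R 4.3.3 fitted a quasi-likelihood model of 6 group means to all 18 libraries, scaled by TMM, with a common biological coefficient of variation of 0.862. P-values were adjusted by the Benjamini-Hochberg method over all tested genes of a comparison, with a threshold of 0.05. Each standard error was derived from the F statistic of its fold change. Alternatives were DESeq2 1.42.0, RLE scaling, no filter, a replicate block, a term for the number that opens each description code, the fit of 17 libraries without liver NK RARα403 replicate 1, a fit restricted to replicates 2 and 3, and leaving out each library in turn. The steps were tested on simulated counts.

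The members, the gene lists, the markers and the tests were chosen with earlier results of these data known. All 8 members are reported. Of each list, a comparison names up to 4 genes past the threshold with the largest change or, where none passed, up to 2 with the smallest p, of which the text gives a selection. Promoter sequences are RefSeq's, build GRCm38.p6.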

Additional observations from a re-analysis of the deposited data

How the results depend on the processing

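Counts of calls depended most on the tool and the filter. In the order spleen ILC1s, liver ILC1s and liver NK cells, RARα403 against control gave 0 genes each in edgeR, 25, 38 and 156 with DESeq2, and 32, 43 and 523 with no filter. Replicates 2 and 3 only gave 1, 1 and 2, and leaving liver NK RARα403 replicate 1 out of the shared fit gave 1 in NK cells. With no filter 1 member was called in spleen ILC1s (Ccl4) and 2 in liver ILC1s (Ccl4 and Ccl3). For liver ILC1s against NK cells of RARα403 mice, 59 genes became 591 with DESeq2, 794 with no filter and 162 in replicates 2 and 3. Its 0 members became 1 with DESeq2 (Il2), 2 with no filter and 1 in replicates 2 and 3 (Xcl1). For control mice, 89 genes became 440 with DESeq2, 355 with no filter, 290 without liver NK RARα403 replicate 1 and 221 in replicates 2 and 3. For control spleen ILC1s against liver NK cells, 46 became 339, 316 and 154 under the first 3 of these, with 2, 2 and 1 members. For control spleen against liver ILC1s, 0 became 38 with DESeq2 and 78 with no filter. The interactions gave 54 and 268 between liver ILC1s and NK cells and 23 and 41 between spleen and liver ILC1s under the same settings. The cause was not tested.

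Whether libraries with the same replicate number share animals across populations is not stated. Xist was high in the same replicates of each population, and description codes of same-numbered libraries of a genotype end alike. Deviations from the group mean correlated at -0.03 to 0.25 between same-numbered libraries, and 3 of 21 pairs exceeded 0.1. Those pairs include some across genotypes, and low correlations cannot exclude shared animals. The replicate block put libraries of both genotypes under the same number, and a pairing within each genotype was not fitted. With this block, control liver ILC1s against NK cells had 1 member called (Xcl1, with Il2 lost), the RARα403 contrast had 34 genes and spleen ILC1s against NK cells 25. Under the block the difference of Ifng in liver ILC1s by genotype was 0.034, that of Csf1 in control spleen ILC1s against NK cells -1.22 and the interaction of Csf1 between liver ILC1s and NK cells 2.16.

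Leaving out 1 library gave 0 to 1 genes for RARα403 in liver ILC1s, 0 to 2 in NK cells, 0 to 1 for spleen against liver ILC1s and for the interaction with NK cells, 18 to 254 for ILC1s against NK cells of RARα403 mice, 18 to 55 for those of control mice and 7 to 34 for spleen ILC1s. Members called were 0 to 1 in both liver contrasts. Of 504 differences of members under the other settings 19 changed sign, and of 528 with a library left out 45 did, none of them a called difference. In replicates 2 and 3, RARα403 against control became 0.037 for Ifng and 0.043 for Il2 in liver ILC1s and -0.35 for Il2 in spleen ILC1s. Liver ILC1s against NK cells of control mice became -0.33 for Csf2 and -0.63 for Ccl3. Spleen against liver ILC1s became -0.28 for Ifng and 0.75 for Ccl3, and spleen ILC1s against NK cells 0.12 for Ccl3 (0.0070 with DESeq2 and 0.0079 with RLE scaling). The interactions became -0.13 for Ccl5 and 0.18 for Xcl1 with NK cells, and -0.39 for Il2, -0.47 for Ccl3 and -0.022 for Ccl4 between spleen and liver ILC1s. With no filter Ifng by genotype in liver ILC1s was 0.016.

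With 1 library left out, RARα403 against control ran from -0.26 to 0.60 for Ifng and -0.46 to 0.010 for Il2 in liver ILC1s. In spleen ILC1s it ran from -1.16 to 0.95 for Il2 and -1.02 to 0.18 for Xcl1, and in NK cells from -5.41 to 3.93 for Csf1, -0.46 to 3.87 for Il2 and -0.53 to 0.070 for Xcl1. Liver ILC1s against NK cells ran from -0.56 to 0.74 for Ccl3, -0.32 to 2.67 for Csf2 and -0.32 to 0.66 for Ifng in control mice, and from -0.52 to 0.77 for Ccl4 and -0.26 to 0.21 for Ccl5 in RARα403 mice. Control spleen against liver ILC1s ran from -1.38 to 0.54 for Ccl3, -1.16 to 0.47 for Ccl4, -0.20 to 0.053 for Ccl5, -2.55 to 0.091 for Csf1 and -0.063 to 0.94 for Ifng. Spleen ILC1s against NK cells ran from -1.18 to 0.51 for Ccl3, -0.014 to 6.63 for Csf1 and -1.59 to 1.37 for Csf2. The interaction with NK cells ran from -5.53 to 3.81 for Csf1, -1.48 to 1.598 for Csf2 and -4.01 to 0.33 for Il2, and that between spleen and liver ILC1s from -0.018 to 1.91 for Ccl3, -0.77 to 0.87 for Ccl4, -1.01 to 1.09 for Il2 and -0.11 to 1.35 for Xcl1. Depth limits Csf1 in all groups and Il2 in NK cells.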
